A study of Mus musculus with 7 samples.

Results

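The collagen chain genes are the genes whose symbol is Col, a type number, the letter a and a chain number, and nothing more. In 3 tables of unique molecular identifier (UMI) counts from single cells of the mouse pancreas, 44 of 33864 listed genes met this rule, and they belong to 27 collagen types. Of these genes, 41 are listed for every condition. Col2a1 is not listed for WT, Col9a1 not for i4F, and Col10a1 not for WT and caerulein, and a gene without a row was read as 0 UMIs there. The rule used the name only and no measured value.

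Single cells of 7 mice aged 2 months were measured, 1 library per mouse. The labels give C57BL/6 as the strain of all 7, and the study's methods name C57BL/6J.Ola.Hsd as the background of the i4F line. The 2 WT and the 3 i4F mice drank doxycycline at 1 mg/ml for 7 days. The i4F mice were of the i4F-B strain and heterozygous for both of its alleles, a doxycycline-inducible cassette of the Yamanaka factors Oct4, Sox2, Klf4 and Myc (OSKM) inserted in Pparg, and the transactivator rtTA in Rosa26, which is active in all tissues. OSKM could therefore be induced in every cell type and not in stellate cells alone. The 2 caerulein mice were wild type and received caerulein, a secretagogue that causes mild acute pancreatitis, at 100 µg/kg in 7 injections a day on 2 days, and the pancreas was taken on day 4. The caerulein and WT mice thus differ both in caerulein and in doxycycline, and no vehicle-injected mice were analysed here.

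Collagens are triple helices of alpha chains. Each chain is made in the endoplasmic reticulum, where hydroxylases and chaperones fit it for assembly, and after secretion propeptides are cut off and the molecules are crosslinked. Fibrillar collagens (types I, III, V and XI) form the banded fibres of scar tissue, type IV forms the sheet of basement membranes, and type VI forms beaded filaments around cells. In the pancreas, stellate cells are the resident fibroblast-like cells that store vitamin A at rest and lay down fibrillar collagen when activated by injury, while endothelial and epithelial cells make basement membrane chains.

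The promoters of 7 members on which the results below turn are shown to set chains of the same fibril or network side by side. Promoters of 35 of the 44 members were found in the RefSeq table, 38 in all, of the build GRCm38.p6. The 250 bases before the start are printed 5′ to 3′ on the strand of the gene, and none of these windows overlaps an annotated exon. Capitals mark every match on either strand to the CCAAT box (letters CCAAT), the TATA box (letters TATAAA) and the GC box (letters GGGCGG), and no matches overlap in these windows.
Col3a1 promoter, chr1:45311288-45311537, plus strand: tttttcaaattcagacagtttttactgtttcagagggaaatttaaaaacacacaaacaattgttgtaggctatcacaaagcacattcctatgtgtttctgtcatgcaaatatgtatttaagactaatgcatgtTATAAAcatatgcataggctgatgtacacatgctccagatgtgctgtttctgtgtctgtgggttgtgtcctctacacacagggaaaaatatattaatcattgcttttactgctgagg
Col5a1 promoter, chr2:27886175-27886424, plus strand: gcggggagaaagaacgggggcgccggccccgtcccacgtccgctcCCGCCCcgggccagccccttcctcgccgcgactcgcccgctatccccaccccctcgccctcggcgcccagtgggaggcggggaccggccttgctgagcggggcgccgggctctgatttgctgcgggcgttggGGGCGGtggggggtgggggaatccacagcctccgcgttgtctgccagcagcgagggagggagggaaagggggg
Col5a3 promoter, chr9:20815068-20815317, minus strand: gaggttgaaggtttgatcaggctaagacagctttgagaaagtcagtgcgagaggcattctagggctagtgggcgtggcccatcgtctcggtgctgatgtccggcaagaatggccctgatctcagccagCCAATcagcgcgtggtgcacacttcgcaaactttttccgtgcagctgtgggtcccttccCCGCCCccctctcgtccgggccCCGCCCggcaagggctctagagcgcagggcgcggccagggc
Col6a3 promoter, chr1:90843972-90844221, minus strand: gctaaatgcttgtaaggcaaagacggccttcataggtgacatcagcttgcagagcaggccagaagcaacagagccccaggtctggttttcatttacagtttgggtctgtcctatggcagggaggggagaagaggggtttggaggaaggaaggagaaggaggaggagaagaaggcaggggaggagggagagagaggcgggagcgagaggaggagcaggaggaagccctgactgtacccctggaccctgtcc
Col8a1 promoter, chr16:57754738-57754987, minus strand: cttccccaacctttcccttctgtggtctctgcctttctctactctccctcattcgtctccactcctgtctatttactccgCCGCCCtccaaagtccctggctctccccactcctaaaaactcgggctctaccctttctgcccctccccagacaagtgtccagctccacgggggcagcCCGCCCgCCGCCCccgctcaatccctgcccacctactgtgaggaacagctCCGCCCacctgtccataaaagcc
Col11a1 promoter, chr3:114030290-114030539, plus strand: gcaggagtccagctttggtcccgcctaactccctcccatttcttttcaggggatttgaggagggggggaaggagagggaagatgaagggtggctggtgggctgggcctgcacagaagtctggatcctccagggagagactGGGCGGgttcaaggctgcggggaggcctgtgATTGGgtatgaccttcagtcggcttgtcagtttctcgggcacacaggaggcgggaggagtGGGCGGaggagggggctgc
Col15a1 promoter, chr4:47207762-47208011, plus strand: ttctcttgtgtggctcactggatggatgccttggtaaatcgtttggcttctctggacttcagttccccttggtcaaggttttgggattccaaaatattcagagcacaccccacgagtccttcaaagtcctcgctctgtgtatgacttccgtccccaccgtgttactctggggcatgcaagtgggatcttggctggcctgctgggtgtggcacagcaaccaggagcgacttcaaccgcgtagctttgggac
The GC box was in the 250 bases of 22 of the 38 member promoters (57.9%), beside 32.7% of all 32851 promoters. The CCAAT box was in 34.2% of the member promoters and 33.8% of all, and the TATA box in 13.2% and 12.4%. The 2 type V chains printed here hold 2 GC boxes each, and only that of Col5a3 also holds a CCAAT box. The Col3a1 window is the one with a TATA box and has a GC content of 35.2%, beside 76.4% for Col5a1. No match was found for Col6a3 and Col15a1.

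Collagen RNA lay mostly in the stellate cells in every mouse. Over all mice, 2152378 UMIs fell on the members, of which Col1a1, Col1a2 and Col3a1 took 71.6%. A UMI counts 1 captured transcript at its 3′ end whatever its length. The stellate clusters of the deposited annotation comprised 26.3% and 39.6% of all cells in WT, 44.8%, 32.6% and 16.8% in i4F and 24.3% and 29.0% after caerulein. They held 83.5% and 88.4% of the collagen UMIs in WT, 97.7%, 96.8% and 92.0% in i4F and 93.7% and 95.5% after caerulein. The share of collagen UMIs was thus above the share of cells in all 7 mice, and the remainder in the WT mice lay chiefly in endothelial cells (6.65% and 5.90%), ductal cells and mesothelium. A share of a mouse's collagen UMIs moves with the number of cells of each class as well as with the RNA per cell, and these cannot be told apart in it.

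**Figure D1:**
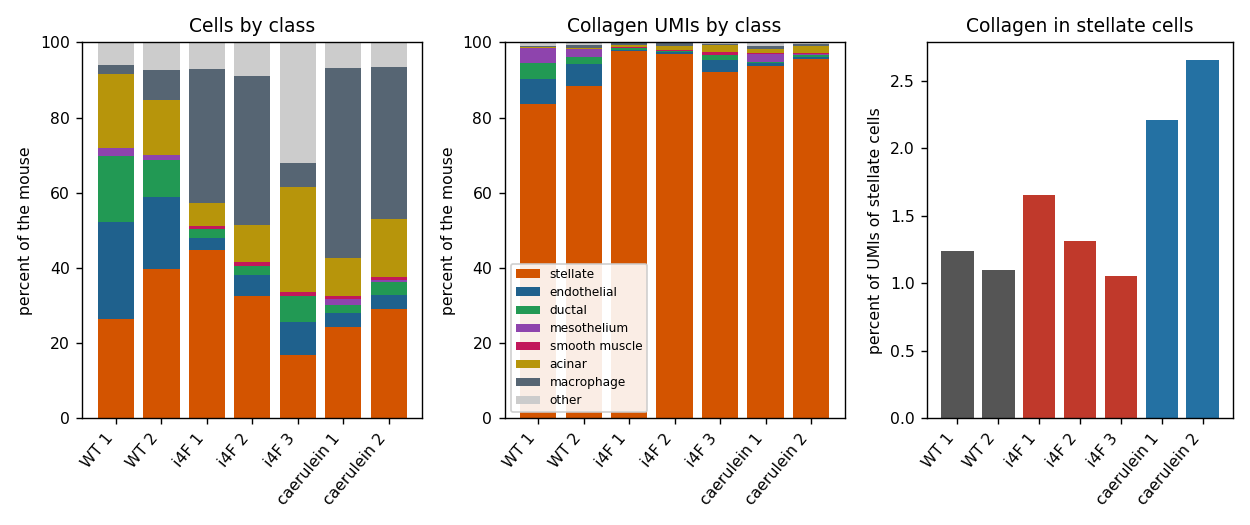
Percent of each mouse's cells (left) and of its collagen UMIs (middle) by cell class, stacked to 100, and the percent of all UMIs of stellate cells that are collagen (right), 1 bar per mouse. Stellate cells hold 83.5% to 97.7% of the collagen UMIs, and the 2 caerulein mice have the tallest bars on the right.

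Within stellate cells, collagens took 1.24% and 1.10% of the UMIs in WT, 1.66%, 1.31% and 1.05% in i4F and 2.21% and 2.65% after caerulein. Both caerulein mice were above all other mice, with a mean of 2.43% ± 0.315 (SD, n = 2) against 1.17% ± 0.102 (SD, n = 2) in WT. The i4F mice, at 1.34% ± 0.303 (SD, n = 3), overlapped WT. With the WT activated and the second i4F cluster left out of the stellate cells (described below, and chosen after seeing the data), the share was 1.31% and 1.14% in WT and 1.68%, 1.33% and 2.02% in i4F, and that of i4F replicate 3 then rests on 113 of its 1280 stellate cells. The cells left out in this mouse are those of its cluster with the lower collagen share, so that its rise follows from the choice of cells.

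The 7 libraries held 58473 cells and 15469018 to 64784216 UMIs each, and some libraries and clusters stood apart. CPM below is UMIs per 1000000 UMIs of the cells in question. The stellate cells of i4F replicate 3 lay between WT and the other i4F mice for many members. Of its 1280 stellate cells, 1167 were in the cluster Activated_Pancreatic_Stellate_2 and 113 in Activated_Pancreatic_Stellate_1, while in i4F replicates 1 and 2 the first of these names covers 144 and 126 cells with mesothelial genes (Msln 1705 and 2049 CPM, against 109.6 in replicate 3). rtTA was found in i4F replicate 3 (722 UMIs, 46.7 CPM over all cells) at a level like that of replicates 1 and 2 (42.5 and 48.3 CPM). The WT cluster named Activated_Pancreatic_Stellate carried the smooth muscle and pericyte genes Rgs5 (4792 and 3619.5 CPM) and Myh11 (2991 and 2502 CPM), which are at most 4.36 CPM in the quiescent WT clusters. Cell barcodes shared by 2 libraries numbered 3 to 39, at most 0.411% of the smaller library. The library names start with AL for WT replicate 1 and the i4F mice and with AM for WT replicate 2 and the caerulein mice, and the labels do not say what this marks. Each name series holds 1 WT mouse, and the caerulein and i4F mice fall in different series. The 9 fibroblast markers, all found in every group, summed in stellate cells to 59121 to 59187 CPM in WT, 4439 to 36077 in i4F and 6248 to 6635 after caerulein, with i4F replicate 3 at 36077 CPM, and the 11 pericyte and smooth muscle markers to 2204 to 3770.3 CPM in WT, 1353 to 4248 in i4F and 2323 to 2804 after caerulein. Sums of markers of other classes also differed between mice in stellate cells. The 13 ductal markers summed to 264 and 95.5 CPM in WT, 2448, 3869.6 and 525 in i4F and 639 and 787 after caerulein, the 9 macrophage markers to 14.4 and 39.9 CPM in WT, 411, 318 and 199.7 in i4F and 1457 and 941 after caerulein, and the 14 acinar markers found in the tables (of 32 listed) to 663 and 573 CPM in WT, 23.4, 63.5 and 1432 in i4F and 28.2 and 21.3 after caerulein. None of these markers is at 0 in all mice. Whether these differences bear on the collagen values below was not tested.

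In stellate cells 31 of the 44 members passed the filter on low counts. Against WT, the called chains in i4F were Col7a1, Col8a1, Col11a1, Col12a1 and Col28a1, which were higher, and Col4a5, Col5a3, Col13a1, Col15a1 and Col20a1, which were lower. After caerulein they were Col1a1, Col1a2, Col3a1, Col5a1, Col5a2, Col6a3 and Col28a1, which were higher, and Col4a5, which was lower. The sums per mouse were compared with edgeR's quasi-likelihood test in a fit of all 7 mice, and a gene was called at an adjusted p (Benjamini-Hochberg, over all 14818 genes tested) under 0.05. For i4F against WT, 10 of 31 members (32.3%) were called, beside 20.6% of all genes. The 5 called higher stand beside 12% of all genes called higher, and the 5 called lower beside 8.58%. Of the 10, Col13a1 and Col20a1 passed the filter only through the WT mice, being at most 0.742 CPM in the others. Col11a1 and Col28a1 passed it only through the i4F and caerulein mice, being at most 0.562 CPM in WT. These members entered the test through the groups where they are high, so that their calls are not independent of the filter. For caerulein against WT, 8 of 31 (25.8%) were called beside 17.1% of all genes, 7 of them higher (background 9.99%) and 1 lower (background 7.1%). For i4F against caerulein, 1 of 31 was called, and lower, beside 0.459% of all genes in either direction and 0.155% lower. The median log2 fold change of the tested members was -0.58, 0.20 and -0.65 in these comparisons, and that of all genes 0.02, -0.04 and 0.05. The sign of the caerulein median was not stable, since it was -0.12 over 43 members without the filter and -0.03 over 34 without i4F replicate 3. The first 2 comparisons share the WT mice. Other scalings moved the split of calls, which was 5 higher and 10 lower for i4F and 6 higher and 3 lower for caerulein without TMM factors. By DESeq2 it was 7 higher and 11 lower for i4F and 11 higher and 4 lower for caerulein. Of all genes, the percent called higher and lower was 9.14% and 12.6% for i4F and 7.34% and 9.37% for caerulein without TMM factors, and 16% and 10.7% for i4F and 14.4% and 10.4% for caerulein by DESeq2.

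Without i4F replicate 3, 34 members were tested. For i4F against WT 27 were called, 9 higher and 18 lower, beside 47.8% of all 16058 genes. For caerulein against WT 22 were called, 11 in each direction, beside 39.7%, and for i4F against caerulein 12, of which 10 were lower in i4F, beside 11.5%. The 10, 8 and 1 calls made with this mouse were all among those made without it. Among the calls against WT without this mouse, Col4a3, Col4a6, Col13a1, Col19a1, Col20a1 and Col25a1 passed the filter through the WT mice, where they are high. Col11a1 and Col28a1 passed it through the i4F and caerulein mice and not through WT. The calls of these members are thus not independent of the filter. Without WT replicate 1, WT replicate 2, caerulein replicate 1 or caerulein replicate 2, a group is left with 1 mouse. No member and hardly any other gene was called in these fits. In the same order, the median log2 fold change of the tested members was -0.38, -0.78, -0.71 and -0.61 for i4F against WT. It was 0.13, 0.04, 0.27 and 0.07 for caerulein against WT, and -0.64, -0.62, -0.64 and -0.59 for i4F against caerulein. Without i4F replicate 1 or i4F replicate 2, 0 members were called for i4F against WT, beside 2.56% and 0.188% of all genes, and 13 and 2 for caerulein against WT, beside 13.7% and 8.44% of all genes. With the name series as a term in the fit 0 were called in each comparison, beside 0.108%, 0.0472% and 0% of all genes.

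Other choices of cells and scaling ended single calls. With the cells that hold pericyte genes left out, Col1a2, Col3a1 and Col6a3 were no longer called for caerulein against WT, Col8a1, Col11a1 and Col12a1 for i4F against WT and Col6a3 for i4F against caerulein, with adjusted p from 0.050 to 0.061 and every direction kept. With the smooth muscle and mesothelium clusters added, Col1a2 and Col4a5 were no longer called for caerulein against WT, Col7a1, Col12a1, Col13a1, Col15a1 and Col20a1 for i4F against WT and Col6a3 for i4F against caerulein, with adjusted p from 0.051 to 0.165. Without TMM factors both Col6a3 calls were lost, with adjusted p from 0.059 to 0.061. With only the 2 compared groups in the fit, 0 members were called for i4F against WT and for i4F against caerulein. These stand beside 0.757% and 0.0244% of all genes. For caerulein against WT that fit called 21 members, beside 38.8% of all genes.

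**Figure D2:**
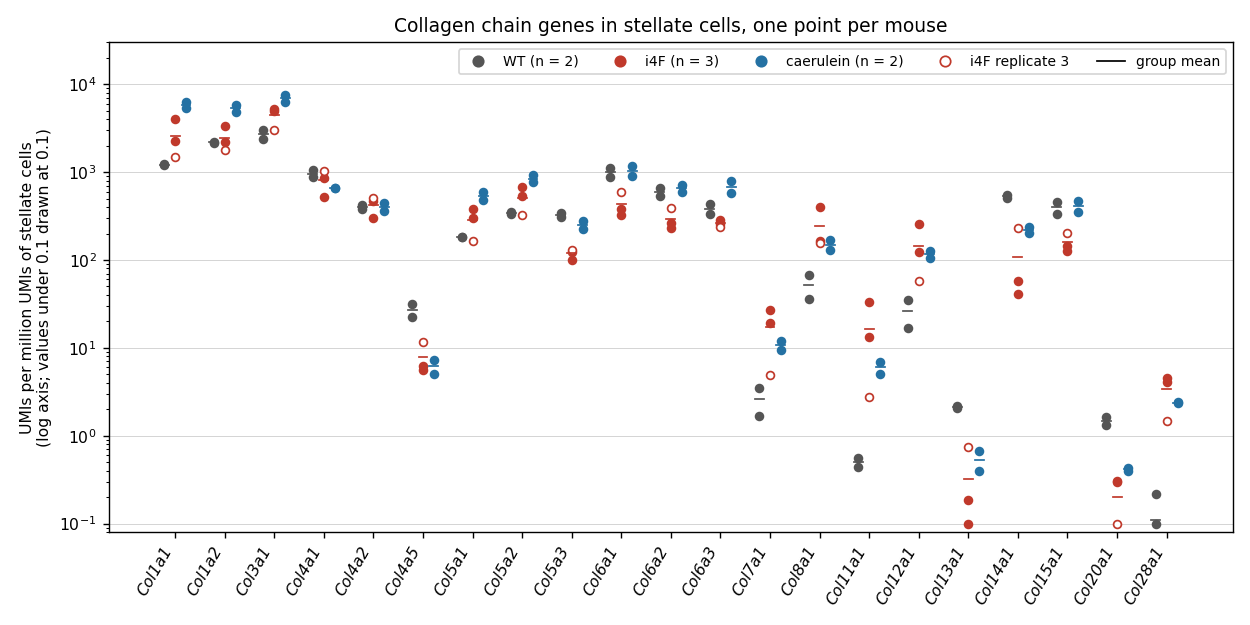
Level in CPM of stellate cells (log axis) for the 21 members with a mean of at least 100 CPM or a call, 1 point per mouse, with the group mean as a bar; the open point is i4F replicate 3. Col1a1, Col1a2, Col3a1, Col5a1 and Col5a2 are higher in both caerulein mice than in either WT mouse, while Col5a3, Col6a1, Col14a1 and Col15a1 are lower in all 3 i4F mice than in either WT mouse.

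**Figure D3:**
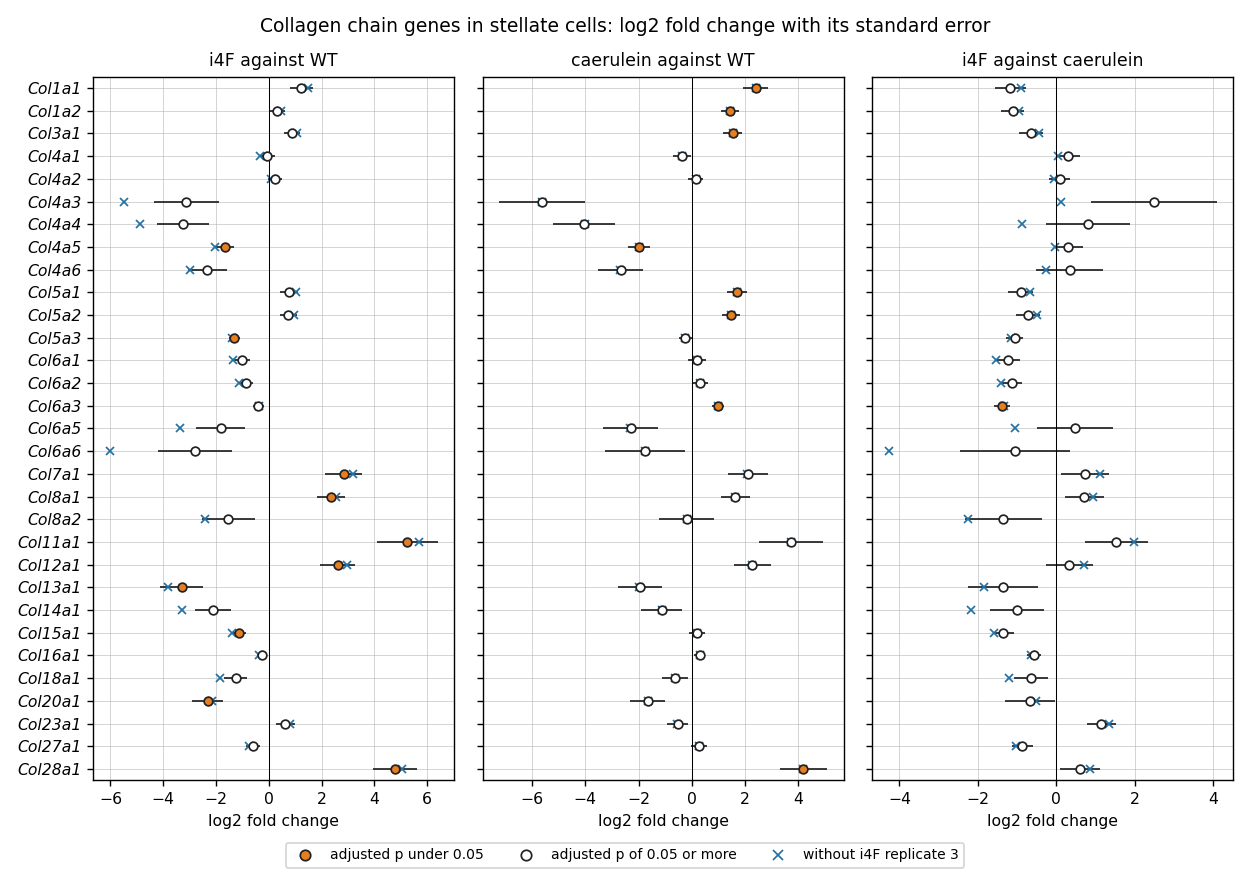
Log2 fold change (x axis) with its standard error as a bar for the 31 members tested in stellate cells, in 3 comparisons; filled points have an adjusted p under 0.05 and crosses give the estimate without i4F replicate 3. Col1a1, Col1a2, Col3a1, Col5a1 and Col5a2 lie to the right for caerulein against WT, and Col6a3 is the single filled point for i4F against caerulein.

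Types I and III are the main fibrillar collagens, and most type I trimers hold both Col1a1 and Col1a2. Col1a1 stood at 1210.5 and 1224 CPM in WT, 3981, 2234 and 1481 in i4F and 5328 and 6313 after caerulein. All caerulein values lie above all others, and the i4F values lie above WT with replicate 3 nearest to it. The value of i4F replicate 3 rests on a small cluster. Of its 5984 Col1a1 UMIs, 4131 lay in the 113 cells of Activated_Pancreatic_Stellate_1 (4083 CPM). The 1167 cells of its Activated_Pancreatic_Stellate_2 were at 612 CPM, below both WT mice. Col1a1 rose after caerulein (log2 fold change with its SE, here and below, 2.41 ± 0.47, adjusted p = 0.024), and for i4F against WT the value was 1.23 ± 0.42, adjusted p = 0.076, or 1.49 with adjusted p = 0.0072 without replicate 3. Col1a2 stood at 2227 and 2143 CPM in WT, 3338, 2181 and 1793 in i4F and 4825 and 5825 after caerulein. It rose after caerulein (1.43 ± 0.35, adjusted p = 0.037), while the i4F and WT mice overlapped (0.32 ± 0.31, adjusted p = 0.47). Col3a1, whose homotrimer joins type I in fibrils of young scars, stood at 3038 and 2362 CPM in WT, 5281, 5017 and 2976 in i4F and 6326 and 7615 after caerulein. It rose after caerulein (1.53 ± 0.34, adjusted p = 0.032), and i4F replicate 3 lay within the range of the WT mice.

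The ratio of Col1a1 to Col1a2 UMIs in stellate cells was 0.544 and 0.571 in WT, 1.19, 1.02 and 0.826 in i4F and 1.10 and 1.08 after caerulein. The ratio was higher in each of the 5 i4F and caerulein mice than in both WT mice, with i4F replicate 3 nearest to WT. A ratio within a library does not depend on its scaling, and no test was run on it.

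Type V collagen sits inside type I fibrils and sets their diameter, and its usual trimer holds Col5a1 and Col5a2. Col5a1 stood at 185 and 183 CPM in WT, 376, 302 and 166 in i4F and 479 and 588 after caerulein. Col5a2 stood at 348 and 333 CPM in WT, 668, 538 and 323 in i4F and 771 and 919 after caerulein. For both chains the caerulein mice are highest and i4F replicate 3 lies below the WT mice. Both rose after caerulein (Col5a1 1.68 ± 0.37, adjusted p = 0.03; Col5a2 1.46 ± 0.34, adjusted p = 0.034). For i4F against WT the values were 0.77 and 0.74, with adjusted p = 0.13 and 0.12, and without replicate 3 1.02 and 0.96, with adjusted p = 0.0041 and 0.0049.

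Col5a3, a further type V chain, differed in the place of the WT mice, which were highest, while caerulein was above i4F for all 3 chains. It stood at 312 and 342 CPM in WT, 124, 101 and 131 in i4F and 223 and 278 after caerulein, so that every i4F mouse was under every caerulein mouse and every caerulein mouse under every WT mouse. It fell in i4F against WT (-1.31 ± 0.21, adjusted p = 0.018), the value for caerulein against WT was -0.24 ± 0.23, adjusted p = 0.46, and that for i4F against caerulein was -1.06 ± 0.21, adjusted p = 0.086. The ratio of Col5a3 to Col5a1 UMIs was 1.69 and 1.87 in WT, 0.329, 0.334 and 0.788 in i4F and 0.465 and 0.473 after caerulein, while that of Col5a2 to Col5a1 stayed between 1.56 and 1.95 in all 7 mice.

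The other fibrillar chains were less abundant. Col11a1, a chain of cartilage and of activated fibroblasts that can join type V trimers, stood at 0.562 and 0.438 CPM in WT, 33.2, 13.3 and 2.72 in i4F and 5.09 and 6.92 after caerulein. The WT mice had 3 and 4 UMIs in all, against 1440 and 309 in i4F replicates 1 and 2 and 11 in replicate 3. Col11a1 rose in i4F against WT (5.25 ± 1.15, adjusted p = 0.029), and for caerulein against WT the value was 3.72 ± 1.20, adjusted p = 0.069. Col27a1 ranged from 26.9 to 71.1 CPM over the 7 mice and was called in none of the comparisons. The remaining fibrillar members Col2a1, Col11a2 and Col24a1 did not pass the filter.

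Type VI collagen is a tetramer of trimers of Col6a1, Col6a2 and a further chain, most often Col6a3. These 3 chains were lower in each i4F mouse than in each mouse of both other groups. Col6a1 stood at 1109 and 882 CPM in WT, 385, 324 and 594 in i4F and 897 and 1161 after caerulein. All 3 i4F mice lie under the WT and caerulein mice, which overlap each other. For i4F against WT, Col6a1 was at -1.02 ± 0.30, adjusted p = 0.052, and Col6a2, with 661 and 538 CPM in WT and 264, 233 and 388 in i4F, at -0.85 ± 0.27, adjusted p = 0.061. In the caerulein mice Col6a2 was at 599 and 718 CPM. Without i4F replicate 3 both were called lower in i4F than in WT (adjusted p = 0.0015 and 0.0018) and than after caerulein (adjusted p = 0.0071 and 0.0062).

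Col6a3 stood at 433 and 337 CPM in WT, 286, 256 and 240.0 in i4F and 574 and 797 after caerulein. The 3 groups do not overlap, with caerulein highest and i4F lowest. Col6a3 rose after caerulein (0.99 ± 0.22, adjusted p = 0.033) and was the 1 member called between i4F and caerulein (-1.38 ± 0.20, adjusted p = 0.049), while i4F against WT gave -0.39 ± 0.20, adjusted p = 0.18. The ratio of Col6a3 to Col6a1 UMIs was 0.390 and 0.382 in WT, 0.743, 0.790 and 0.404 in i4F and 0.640 and 0.687 after caerulein, so that i4F replicate 3 was close to WT and the other 4 mice were higher. Of the chains that can replace Col6a3, Col6a5 and Col6a6 were highest in WT. Col6a6 was at 74.4 and 51.8 CPM in WT, 1.11, 0.518 and 26.2 in i4F and 14.4 and 19.2 after caerulein, and i4F replicates 1 and 2 stand apart from replicate 3. Neither was called with all mice. Without i4F replicate 3, both were called lower in i4F against WT (Col6a5 -3.37, adjusted p = 0.00021; Col6a6 -6.03, adjusted p = 8.6e-05). Col6a4 had at most 0.495 CPM and was not tested.

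Type IV chains form basement membranes, and their genes lie head to head in pairs that are read in opposite directions from a shared start region. In the GENCODE annotation vM21 of GRCm38, the starts of Col4a1 and Col4a2 on chromosome 8 lie 21 bases apart, those of Col4a3 and Col4a4 on chromosome 1 lie 72 bases apart and those of Col4a5 and Col4a6 on chromosome X lie 1309 bases apart. Col4a1 and Col4a2 were abundant, and the other 4 were not. Col4a1, in the trimer found in nearly all basement membranes, stood at 1047 and 869 CPM in WT, 520.1, 853 and 1041 in i4F and 659 and 660.0 after caerulein. Col4a2 stood at 385 and 426 CPM in WT, 303, 475 and 504 in i4F and 365 and 444 after caerulein. Neither was called in any comparison (for i4F against WT, Col4a1 was at -0.08 ± 0.31, adjusted p = 0.86, and Col4a2 at 0.23 ± 0.27, adjusted p = 0.54), and the groups overlap except that both caerulein mice had less Col4a1 than both WT mice.

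The minor type IV chains were rare and highest in WT. Col4a3 stood at 19.7 and 21.9 CPM in WT, 0.346, 0.518 and 8.41 in i4F and 0.358 and 0.399 after caerulein. Col4a4 stood at 40.3 and 38.6 CPM in WT, 0.808, 1.73 and 11.6 in i4F and 2.29 and 1.86 after caerulein. Col4a5 stood at 31.5 and 22.7 CPM in WT, 6.19, 5.61 and 11.6 in i4F and 5.05 and 7.32 after caerulein. All 5 mice that were not WT lie under both WT mice for these chains, with i4F replicate 3 nearest to WT. Col4a5 fell in i4F against WT (-1.68 ± 0.35, adjusted p = 0.027) and after caerulein (-1.99 ± 0.40, adjusted p = 0.026). Col4a3, Col4a4 and Col4a6 had log2 fold changes of -3.13, -3.24 and -2.33 for i4F and -5.61, -4.04 and -2.67 for caerulein against WT, with adjusted p from 0.053 to 0.10. Without i4F replicate 3 all 4 minor chains were called lower in both comparisons, the highest adjusted p being 0.0086. In that fit Col4a3 and Col4a6 passed the filter on low counts through the WT mice, where they are high. The calls of these chains are thus not independent of the filter.

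Fibril-associated collagens sit on the surface of fibrils, and the 2 most abundant, Col12a1 and Col14a1, had values in opposite orders. Col12a1, found in dense and mechanically loaded tissue, stood at 16.9 and 35.3 CPM in WT, 257, 123 and 56.9 in i4F and 107 and 126 after caerulein. Every i4F and caerulein mouse lies above both WT mice. In i4F replicate 3, however, 178 of the 230 Col12a1 UMIs lay in the 113 cells of Activated_Pancreatic_Stellate_1 (176 CPM). The 1167 cells of its Activated_Pancreatic_Stellate_2 were at 17.2 CPM, between the 2 WT mice. Col12a1 rose in i4F against WT (2.61 ± 0.68, adjusted p = 0.04), with 2.27 ± 0.70, adjusted p = 0.063 for caerulein. Col14a1, typical of resting fibroblasts, stood at 509.5 and 555 CPM in WT, 57.1, 41.4 and 229 in i4F and 237 and 201 after caerulein. Every i4F and caerulein mouse lies under both WT mice, and i4F replicate 3 is near the caerulein mice. The value for i4F against WT was -2.12 ± 0.69, adjusted p = 0.067, and without replicate 3 it was -3.30 with adjusted p = 0.00018. Col16a1 varied between 34.6 and 60.1 CPM and was not called. Col20a1 was rare, at 1.31 and 1.64 CPM in WT, 0.300, 0.302 and 0 in i4F and 0.430 and 0.399 after caerulein, and fell in i4F against WT (-2.32 ± 0.60, adjusted p = 0.04). These levels rest on 7 and 15 UMIs in the WT mice and 0 to 13 in the others.

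Among the network and anchoring chains, Col8a1, a short chain of vessel walls and of wound tissue, stood at 35.97 and 68.3 CPM in WT, 403, 166 and 158 in i4F and 130 and 169 after caerulein. The WT mice are lowest and i4F replicate 1 is highest. Of the 637 Col8a1 UMIs of i4F replicate 3, 538 lay in the 113 cells of Activated_Pancreatic_Stellate_1 (532 CPM). The 1167 cells of its Activated_Pancreatic_Stellate_2 were at 32.7 CPM, below both WT mice. Col8a1 rose in i4F against WT (2.35 ± 0.54, adjusted p = 0.032), and for caerulein the value was 1.64 ± 0.56, adjusted p = 0.079. Its partner Col8a2 had at most 6.57 CPM and was not called. Col7a1, which anchors basement membranes to the stroma, stood at 1.69 and 3.51 CPM in WT, 26.9, 19.4 and 4.95 in i4F and 9.57 and 11.9 after caerulein, with i4F replicates 1 and 2 highest and WT lowest, and it rose in i4F against WT (2.83 ± 0.71, adjusted p = 0.037).

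The multiplexins, basement membrane zone collagens whose ends can be released as fragments, were lower in each i4F mouse than in each WT mouse. Col15a1 stood at 462 and 335 CPM in WT, 144, 127 and 205 in i4F and 354 and 464 after caerulein. The i4F mice lie under all others, and the caerulein and WT mice overlap. Col15a1 fell in i4F against WT (-1.15 ± 0.27, adjusted p = 0.032), with 0.20 ± 0.30, adjusted p = 0.64 for caerulein against WT. Col18a1 stood at 78.7 and 66.5 CPM in WT, 14.9, 21.9 and 45.3 in i4F and 39.7 and 44.7 after caerulein, and gave -1.26 ± 0.43, adjusted p = 0.075 for i4F against WT. Of the membrane-spanning chains, Col13a1 was at 2.06 and 2.19 CPM in WT, 0.185, 0.043 and 0.742 in i4F and 0.394 and 0.666 after caerulein, and it fell in i4F against WT (-3.31 ± 0.83, adjusted p = 0.037), on 11 and 20 UMIs in WT and 1 to 8 in i4F. Of the 11 UMIs of WT replicate 1, 7 were in the WT activated cluster, against 1 of the 20 UMIs of WT replicate 2. The 9 endothelial markers summed in stellate cells to 176 and 212 CPM in WT, 29.5, 35.9 and 111 in i4F and 23.8 and 23.7 after caerulein, lower in all i4F and caerulein mice than in WT, as with Col13a1 in i4F. Whether endothelial RNA has a part in the stellate Col13a1 values was not tested. With the WT activated cluster, the lineage-mixed cells or the cells with pericyte genes left out, Col13a1 did not pass the filter. Col23a1 ranged from 2.79 to 11.4 CPM and was not called.

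Col28a1, a minor chain, was nearly absent from WT stellate cells, with 0 and 2 UMIs, while the other 5 mice had 4.57, 4.10 and 1.48 CPM (i4F) and 2.33 and 2.40 CPM (caerulein). In i4F replicate 3 all 6 UMIs lay in the 113 cells of Activated_Pancreatic_Stellate_1, and its Activated_Pancreatic_Stellate_2 had 0. Col28a1 rose in both comparisons with WT, with adjusted p = 0.021 for i4F and 0.028 for caerulein. From pooled counts, 299 against 2 UMIs, the ratio of CPM for i4F against WT was 30.7 with an exact 95% counting interval of 8.42 to 254, and for caerulein, 83 against 2 UMIs, it was 16.9 with an interval of 4.55 to 142. Such intervals cover counting error only.

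The 13 members not tested in stellate cells with all 7 mice were Col2a1, Col6a4, Col9a1, Col9a2, Col9a3, Col10a1, Col11a2, Col17a1, Col19a1, Col22a1, Col24a1, Col25a1 and Col26a1. None exceeded 2.81 CPM in the stellate cells of any mouse, a level reached by Col19a1 in WT replicate 1. Col10a1, the collagen of growing cartilage, had 0 UMIs there and 3 UMIs in the whole study, all in smooth muscle cells of i4F replicate 1.

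The deposited stellate clusters differed in their collagens. Since the clusters were made from the same cells and genes, these are descriptions with no test. In the WT mice the first quiescent cluster (828 and 1911 cells) held more Col15a1 (609.7 and 438 CPM) than the second (196 and 435 cells; 169 and 63.6 CPM). It also held more of the minor type IV chains, with Col4a4 at 55.3 and 49.2 CPM against 4.64 and 3.91 CPM, and Col6a6 at 105 and 66.5 against 8.50 and 14.2 CPM. Col14a1 was the reverse, at 1009 and 1231 CPM in the second cluster and 378 and 381 CPM in the first. Col1a1, Col1a2 and Col5a1 were closer to each other in the 2 clusters, as with Col1a1 at 1289 and 1321 against 1317 and 1154 CPM.

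The WT cluster named activated had the least collagen of the 3 WT stellate clusters. Collagens took 0.316% and 0.256% of its UMIs, against 1.34% and 1.18% in the first and 1.24% and 0.999% in the second quiescent cluster. Col1a1 was at 127 and 62.1 CPM there, whereas Col18a1 (239 and 179 CPM) and Col19a1 (38.2 and 18.4 CPM) were higher than in the quiescent clusters. The Smooth_muscle clusters of the other mice, for which WT has no cluster of that name, had Col18a1 between 214 and 491 CPM. With this WT cluster left out of the sums, 11 and 8 members were called for i4F and caerulein against WT, and 0 for i4F against caerulein, beside 19.6%, 15.3% and 0.158% of all genes.

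In the i4F mice, the 2 activated clusters of replicate 3 differed from each other. Collagens took 1.68%, 1.33% and 2.02% of the UMIs of that cluster in replicates 1, 2 and 3, with Col1a1 at 4044, 2273 and 4083 CPM and Col14a1 at 57.4, 40.6 and 167 CPM. Replicate 3 has 113 cells there. Its 1167 cells of the second cluster had a share of 0.727%, with Col1a1 at 612 and Col15a1 at 180.2 CPM, and Dcn, a fibroblast proteoglycan gene, at 19688 CPM against 1496 and 1936 CPM in the first cluster of replicates 1 and 2. With the WT activated and the second i4F cluster both left out, which leaves 113 stellate cells in i4F replicate 3, 22, 17 and 7 members were called for i4F against WT, caerulein against WT and i4F against caerulein, beside 47.7%, 37.8% and 8.78% of all genes.

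**Figure D4:**
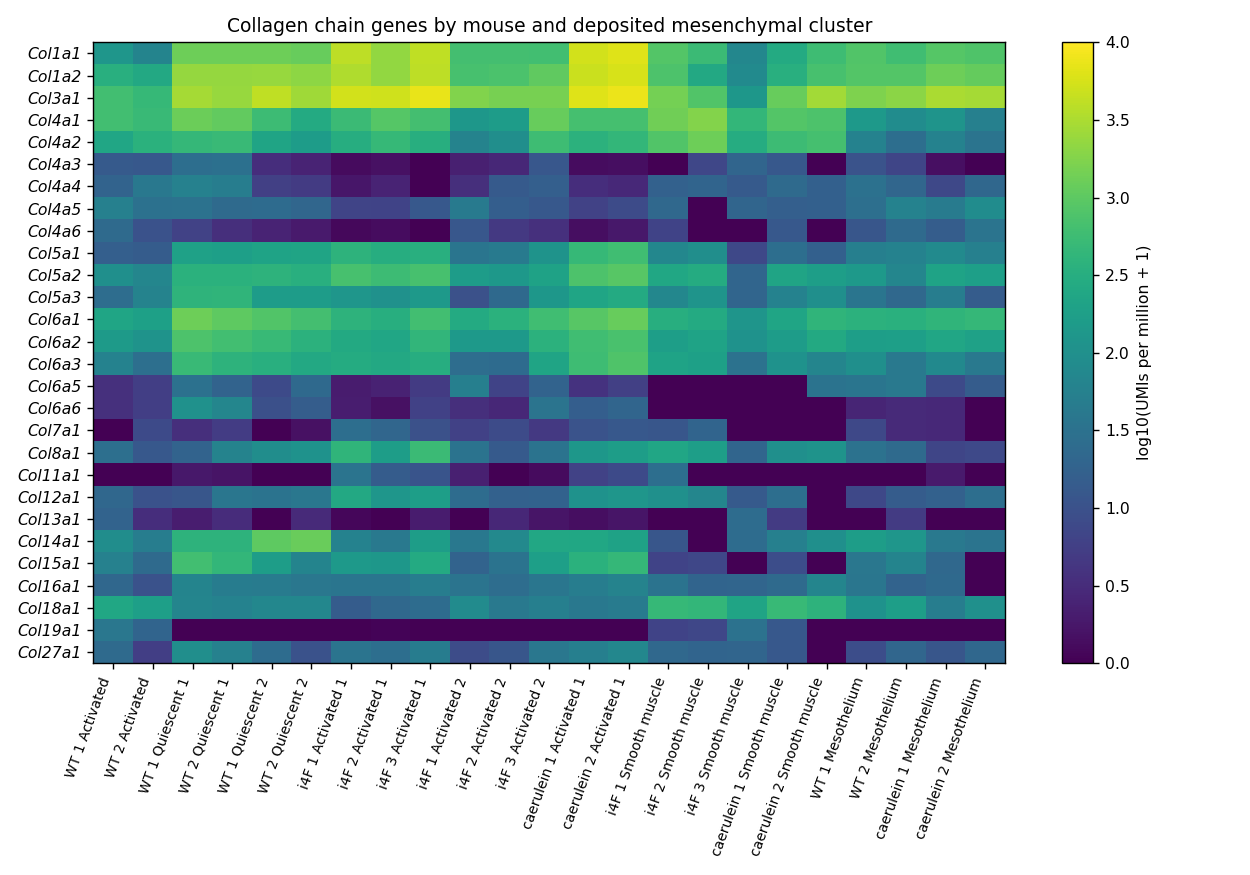
Levels of the members that reach 20 CPM in at least 1 mesenchymal cluster (rows), by mouse and deposited cluster (columns), as log10 of CPM plus 1 in colour. The WT columns named Activated have lower values of Col1a1, Col5a1 and Col6a3 than the quiescent columns beside them, and Col1a1 in the first activated cluster of i4F replicate 3 is as high as in that of replicate 1.

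In endothelial cells, which rest on a basement membrane of types IV, XV and XVIII, 15 members were among the 8153 genes that passed the filter. Col4a1 was the most abundant member in every mouse, at 1395 and 1233 CPM in WT, 1634, 1411 and 834 in i4F and 1282 and 1378 after caerulein. Col4a2 was at 605 and 781 CPM in WT, 1028, 994 and 556 in i4F and 674 and 959 after caerulein. These levels were 80.1% to 314% and 110.2% to 339% of those in the stellate cells of the same mouse. Col13a1, at most 2.19 CPM in stellate cells, was at 120.2 and 289 CPM in WT, 123, 235 and 304 in i4F and 94.0 and 111 after caerulein. Col15a1 was at 298 and 271 CPM in WT, 336, 242 and 124 in i4F and 280.2 and 375 after caerulein. For Col13a1 both caerulein mice lie under all other mice, and WT and i4F overlap. For Col15a1 the 3 groups overlap. None of these 4 genes was called in any comparison.

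Col18a1 in endothelial cells stood at 8.59 and 3.66 CPM in WT, 63.5, 40.0 and 9.11 in i4F and 36.1 and 60.3 after caerulein. The 5 i4F and caerulein mice lie above both WT mice, i4F replicate 3 by little. The value was 2.60 ± 0.68, adjusted p = 0.11 for i4F and 3.00 ± 0.71, adjusted p = 0.053 for caerulein against WT. Markers of lymphatic endothelium, of which 7 of 7 are listed, summed to 86.1 to 92.1 CPM in WT, 748 to 2136 in i4F and 901 to 1077 after caerulein, and the WT mice have a separate cluster of such cells named Lymph_nodes with Col18a1 at 299 and 365 CPM and Col23a1 at 291 and 94.3 CPM. The Lymph_nodes cluster held 35 and 58 Col18a1 UMIs, beside 18 and 9 in the endothelial cells of the same WT mice. Counted together with those cells, Col18a1 in both WT mice lies above i4F replicate 3 and under the other i4F and caerulein mice. The part of lymphatic cells in the difference of Col18a1 was not tested by itself. With that cluster added to the WT endothelial cells, 0 members were called for i4F and 2, Col5a1 and Col6a1, for caerulein against WT, beside 0.22% and 3.55% of all genes.

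Of the 15 members, 3 were called for caerulein against WT in endothelial cells, all higher, beside 4.11% of all genes called and 3.54% called higher. They were Col5a1 (4.17 ± 0.96, adjusted p = 0.047), Col5a2 (3.36 ± 0.77, adjusted p = 0.046) and Col6a1 (2.10 ± 0.49, adjusted p = 0.049). Col5a1 was at 0.954 and 2.44 CPM in WT, 15.9, 6.96 and 0 in i4F and 41.1 and 12.7 after caerulein. Col5a2 was at 3.82 and 6.50 CPM in WT, 43.1, 15.7 and 3.90 in i4F and 64.6 and 28.6 after caerulein. Col6a1 was at 11.9 and 14.6 CPM in WT, 27.2, 13.9 and 7.81 in i4F and 66.3 and 31.7 after caerulein. All 3 are highest in caerulein replicate 1, and the other caerulein mouse overlaps the i4F mice except for Col6a1. Col5a1 and Col5a2 passed the filter on low counts through i4F and caerulein mice and not through WT, so that their calls are not independent of it. By edgeR 0 members were called for i4F against WT (background 0.81%; 4 at an unadjusted p under 0.05, background 18.2%, and 2 by DESeq2, background 3.58%) or for i4F against caerulein (background 0.601%; 4 at an unadjusted p under 0.05, background 10%, and 0 by DESeq2, background 1.46%). Without i4F replicate 3, 4 were called for i4F against WT (background 14.3%) and 10 for caerulein against WT (background 11%). Without i4F replicate 2, 0 were called for caerulein against WT (background 3.42%), and 0 with the name series as a term (background 1.34%). Leaving out a WT or caerulein mouse, so that 1 is left in its group, also ended most or all of the 3 calls. With only cells of at least 500 genes, Col5a1 was no longer called.

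The fibrillar chains in endothelial cells are given beside a fibroblast gene. As a percent of the level in stellate cells of the same mouse, Col1a1 in endothelial cells was 0.315% and 0.697% in WT, 5.13%, 1.01% and 0.527% in i4F and 5.65% and 2.11% after caerulein. Dcn, on the same scale, was 0.594% and 1.57% in WT, 7.59%, 2.25% and 1.12% in i4F and 8.83% and 1.72% after caerulein. For both genes i4F replicate 1 and caerulein replicate 1 are highest. In CPM of endothelial cells, Col1a2 was at 10.97 and 18.7 CPM in WT, 231, 22.6 and 7.81 in i4F and 286 and 124 after caerulein, and Col3a1 at 18.1 and 32.9 CPM in WT, 277, 76.6 and 13.01 in i4F and 526 and 114 after caerulein. Neither was called, and the same 2 mice are highest. The 9 fibroblast markers, none of them at 0, summed in endothelial cells to 368 to 724 CPM in WT, 127 to 337 in i4F and 159 to 618.2 after caerulein, and the 9 macrophage markers summed to 37.7 to 57.3 CPM in WT, 194 to 830.4 in i4F and 4986 to 7197 after caerulein. With cells that carry genes of 2 lineages left out, Col5a1, Col5a2 and Col6a1 did not pass the filter on low counts, so that fit gives no value for them. The part of stellate RNA in these values was not tested.

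**Figure D5:**
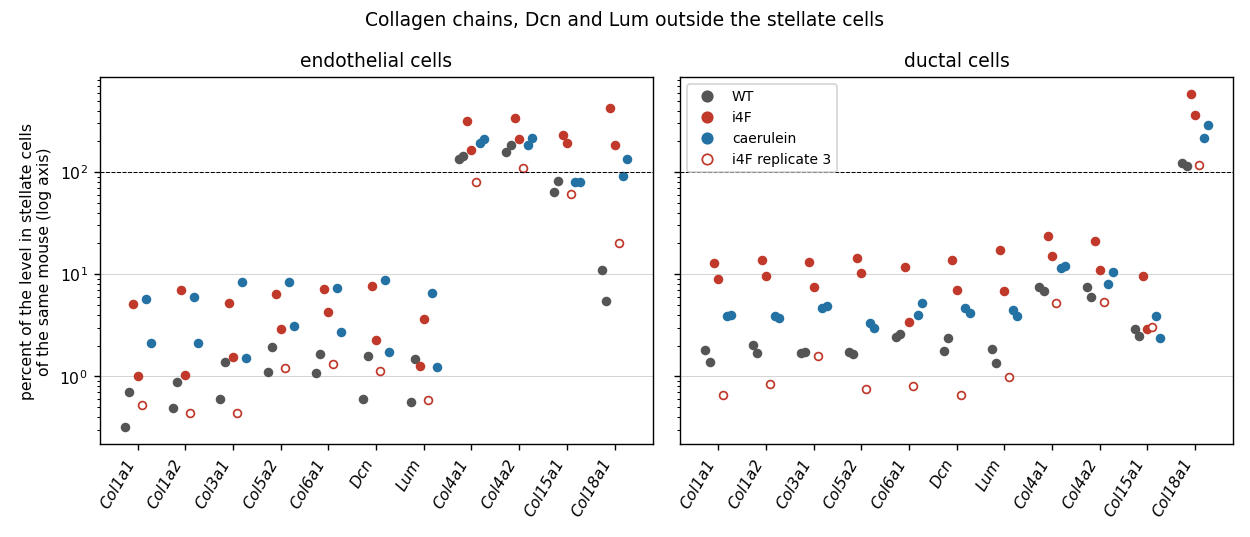
Level in endothelial (left) and ductal (right) cells as a percent of the level in stellate cells of the same mouse (log axis), 1 point per mouse, with the open point for i4F replicate 3 and a dashed line at 100%. Col1a1, Col1a2, Col3a1, Col5a2 and Col6a1 are at most 8.38% in endothelial and 14.5% in ductal cells, and the fibroblast genes Dcn and Lum at most 8.83% and 17.3%, while Col4a1 and Col4a2 in endothelial cells and Col18a1 in ductal cells are near or above 100%.

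In ductal cells 20 members were among the 11619 genes that passed the filter, and 0 were called by edgeR with all 7 mice, beside 0.00861%, 3.53% and 0.387% of all genes for i4F against WT, caerulein against WT and i4F against caerulein. At an unadjusted p under 0.05 by edgeR there were 9, 4 and 2 of the 20 members, beside 17.4%, 30.7% and 16.9% of all genes. DESeq2 called 4, 3 and 0, beside 3.21%, 9.81% and 2.27%. Without i4F replicate 3, 13 of 19 were called for i4F against WT, beside 26.5% of all genes, and 11 of 19 for caerulein against WT, beside 32.2%.

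Col1a1, Col1a2 and Col3a1 led by level in the ductal cells of 4 mice. Col1a1 was at 21.9 and 16.96 CPM in WT, 508, 199.8 and 9.63 in i4F and 208 and 253 after caerulein. Col1a2 was at 45.4 and 36.3 CPM in WT, 464, 207 and 14.9 in i4F and 188 and 218 after caerulein. Col3a1 was at 50.8 and 41.1 CPM in WT, 701, 372 and 47.2 in i4F and 293 and 369 after caerulein, so that i4F replicate 3 lay with WT. As a percent of the level in stellate cells of the same mouse, Col1a1 was 1.81% and 1.39% in WT, 12.8%, 8.94% and 0.650% in i4F and 3.91% and 4.01% after caerulein. Dcn, on that scale, was 1.76% and 2.35% in WT, 13.7%, 7.03% and 0.660% in i4F and 4.71% and 4.14% after caerulein. On this scale both genes are highest in i4F replicates 1 and 2. In CPM of ductal cells the 9 fibroblast markers summed highest in WT, to 1069.6 and 1406 CPM in WT, 723, 487 and 269.6 in i4F and 368 and 372 after caerulein. The 11 pericyte and smooth muscle markers summed to 65.1 and 133 CPM in WT, 985, 270.0 and 209 in i4F and 441 and 354 after caerulein, and the 9 macrophage markers to 17.5 and 71.9 CPM in WT, 952, 513 and 143 in i4F and 1466 and 1129 after caerulein. Both of these sums were lowest in WT, and none of these markers is at 0 in all mice. The part of other cells' RNA in the ductal levels was not tested.

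Other members were as high or higher in ductal cells than in stellate cells of some or all mice. Col18a1 was at 96.3 and 75.5 CPM in WT, 86.4, 78.9 and 53.4 in i4F and 85.1 and 128 after caerulein, above the level of stellate cells in all 7 mice, and was not called. Col9a3, a chain of the fibril-associated type IX that was at most 0.742 CPM in stellate cells, was at 48.6 and 35.1 CPM in WT, 4.80, 6.17 and 27.4 in i4F and 8.06 and 28.3 after caerulein. Col27a1 was at 57.2 and 46.6 CPM in WT, 19.9, 7.40 and 30.8 in i4F and 8.87 and 17.2 after caerulein. Col4a5 was at 35.4 and 33.0 CPM in WT, 5.49, 3.70 and 28.9 in i4F and 11.7 and 17.2 after caerulein. All 3 genes were highest in WT, and i4F replicate 3 was above the other i4F mice. For i4F against WT they gave -1.43, -1.17 and -1.14 with adjusted p from 0.25 to 0.37, and without i4F replicate 3 they were called lower, with adjusted p = 0.0098, 0.022 and 0.0018.

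Col8a1 in ductal cells stood at 0.169 and 0.478 CPM in WT, 77.5, 85.1 and 0 in i4F and 6.05 and 1.23 after caerulein. It was high in i4F replicates 1 and 2 and absent from i4F replicate 3. The WT mice had 3 UMIs together. From pooled counts, 182 against 3 UMIs, the ratio of CPM for i4F against WT was 141 with an exact 95% counting interval of 47.6 to 691, and without i4F replicate 3 it was 271 with an interval of 91.1 to 1324. With all 7 mice the adjusted p was 0.19, and without i4F replicate 3 it was 0.00014. Col8a1 passed the filter on low counts through mice where it is high, i4F replicates 1 and 2 among them, and not through WT. Both adjusted p are thus not independent of the filter. The ductal level was 19.2% and 51.2% of the stellate level in these 2 mice, beside 12.8% and 8.94% for Col1a1 in the same cells. On this scale Col5a1 was at 19.9% and 10.2% and Lum at 17.3% and 6.85%. Col8a1 thus stood above both genes only in i4F replicate 2, and in i4F replicate 1 it was above Lum and under Col5a1. In endocrine cells of these 2 mice Col8a1 was at 87.7 and 79.2 CPM. The part of other cells' RNA in these Col8a1 values was not tested.

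Smooth muscle and mesothelial clusters have levels only, with no test, since no WT cluster is named smooth muscle and no i4F cluster mesothelium. In smooth muscle cells (54 to 114 per mouse), Col4a1 was at 1377, 1822 and 440.4 CPM in i4F and 836 and 769.8 CPM after caerulein. Mesothelium, the lining of the organ, held Col3a1 at 1682 and 2042 CPM in WT and 3080.0 and 2918 CPM after caerulein, and Col1a1 at 829 and 598 against 875 and 785 CPM. The caerulein mesothelium of replicate 2 has 36 cells.

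In acinar and macrophage clusters the fibrillar chains were low. Col1a1 in acinar cells was 2.40% to 6.13% of that in stellate cells, and Dcn 0.848% to 7.30%. In macrophages Col1a1 was 0.349% to 3.49%. Other classes reached higher levels in some mice. Col1a1 ranged from 2.78 to 978 CPM in endocrine cells, with i4F replicate 1 highest and above its ductal cells. It ranged from 0 to 545 CPM in B cells, with caerulein replicate 1 highest, at 10.2% of its stellate level. In NK and T cells it ranged from 2.94 to 383 CPM, with WT replicate 1 highest. The chains called in endothelial cells, Col5a1, Col5a2 and Col6a1, were at 4.80, 6.20 and 9.41 CPM in the macrophages of caerulein replicate 1 and at 3.10, 4.26 and 8.13 CPM in those of caerulein replicate 2, lower than in the endothelial cells of the same mice. In WT replicate 1 the macrophages, at 0, 1.54 and 4.61 CPM, were also lower than the endothelial cells, and in WT replicate 2, at 8.81, 14.2 and 40.0 CPM, they were higher. The part of stellate RNA in the values of all these classes was not tested. Col7a1 was an exception in acinar cells, at 16.9 and 37.9 CPM in WT, 8.78, 12.1 and 24.2 CPM in i4F and 5.26 and 4.54 CPM after caerulein, with WT and i4F replicate 3 highest, the reverse of stellate cells.

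Genes of collagen folding, crosslinking, uptake and signalling were taken from 4 lists. Of all genes tested in stellate cells, beside which the counts in this and the next paragraphs are to be read, 12% were called higher and 8.58% lower in i4F, and 9.99% higher and 7.1% lower after caerulein, against WT. Of 23 genes for folding and modification in the endoplasmic reticulum, all tested, 7 were called higher and 2 lower in i4F and 9 higher and 1 lower after caerulein, against WT, that is 30.4% higher and 8.7% lower in i4F, and 39.1% higher and 4.35% lower after caerulein. The median log2 fold change of the list was 0.30 and 0.91, beside 0.02 and -0.04 over all genes. The counts without i4F replicate 3 were 11 higher and 2 lower in i4F, and 17 higher and 3 lower after caerulein. Between i4F and caerulein 1 was called, P4ha2, a prolyl hydroxylase subunit, lower in i4F (-1.55 ± 0.22, adjusted p = 0.049). Serpinh1, the collagen chaperone HSP47, which is named for its role and outside the rule for named genes, stood at 2319 and 1928 CPM in WT, 2382, 1341 and 1559.6 in i4F and 4926 and 5138 after caerulein. It rose after caerulein (1.40 ± 0.34, adjusted p = 0.036), and for i4F against WT, where the mice overlap, it was at -0.10 ± 0.30, adjusted p = 0.82. Fkbp10, a collagen foldase, rose in i4F (1.97 ± 0.40, adjusted p = 0.026) and after caerulein (2.74 ± 0.43, adjusted p = 0.016). Plod2, which hydroxylates lysines for crosslinks, rose in i4F (1.20 ± 0.30, adjusted p = 0.036) and after caerulein (2.33 ± 0.33, adjusted p = 0.013). P3h1, a prolyl 3-hydroxylase, also rose in i4F (1.27 ± 0.31, adjusted p = 0.035) and after caerulein (1.95 ± 0.34, adjusted p = 0.019).

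Among the modifying enzymes, P4ha3 stood at 0.187 and 0.877 CPM in WT, 43.1, 27.8 and 4.70 in i4F and 3.87 and 3.86 after caerulein. Like Col11a1, it is highest in i4F replicates 1 and 2, and it rose in i4F against WT (5.54 ± 1.09, adjusted p = 0.025). Colgalt2, a collagen galactosyltransferase, fell in i4F (-2.80 ± 0.29, adjusted p = 0.011) and after caerulein (-2.92 ± 0.33, adjusted p = 0.01). P3h2, which acts on basement membrane collagen, stood at 2.81 and 1.86 CPM in WT, 0.069, 0.043 and 0.990 in i4F and 0.143 and 0.266 after caerulein. It fell in i4F against WT (-3.75 ± 1.07, adjusted p = 0.048). P3h2 passed the filter on low counts only through the WT mice, and P4ha3 only through the i4F and caerulein mice. Their calls are thus not independent of the filter.

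Of 13 genes for cutting and crosslinking outside the cell, 12 were tested, with 3 called higher and 0 lower in i4F and 6 higher and 1 lower after caerulein, that is 25% higher and 0% lower in i4F, and 50% higher and 8.33% lower after caerulein. The median log2 fold changes were 0.37 and 0.86. The counts without i4F replicate 3 were 6 higher and 2 lower in i4F, and 6 higher and 2 lower after caerulein. Lox, the lysyl oxidase that starts crosslinks, stood at 131 and 96.5 CPM in WT, 726, 601 and 224 in i4F and 473 and 482 after caerulein. No i4F or caerulein mouse overlaps WT, and Lox rose in both comparisons (2.35 ± 0.49, adjusted p = 0.026; 2.24 ± 0.51, adjusted p = 0.032). Of its relatives, Loxl4 and Loxl1 rose in i4F (log2 fold changes 3.05 and 1.02). Both also rose after caerulein (2.21 and 1.29), as did Adamts14, a propeptide protease (1.40). Pcolce2, an enhancer of propeptide cleavage, fell after caerulein (-1.89 ± 0.31, adjusted p = 0.017).

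Of 9 genes for collagen receptors and uptake, all tested, 1 was called higher and 2 lower in each comparison with WT, that is 11.1% higher and 22.2% lower in each, beside 20.6% and 17.1% of all genes called in either direction. The median log2 fold changes were 0.48 and -0.03. The counts without i4F replicate 3 were 1 higher and 3 lower in i4F, and 1 higher and 3 lower after caerulein. Itga11, the integrin chain that binds fibrillar collagen, stood at 33.2 and 23.9 CPM in WT, 1.96, 1.47 and 7.18 in i4F and 12.1 and 16.5 after caerulein, and fell in i4F (-3.11 ± 0.62, adjusted p = 0.025). Itga1, its relative with a preference for type IV, fell in i4F (-1.50) and after caerulein (-1.80), and Ddr2, a collagen-binding kinase, fell after caerulein (-1.69 ± 0.39, adjusted p = 0.034). Itga2 rose in i4F (1.45 ± 0.26, adjusted p = 0.022). Lair1, an inhibitory receptor of immune cells, was at 0.187 and 0.110 CPM in WT, 0.600, 0.432 and 0.990 in i4F and 2.54 and 1.46 after caerulein. It rose after caerulein (adjusted p = 0.023). Lair1 passed the filter on low counts only through the caerulein mice, so that its call is not independent of the filter. The 8 immune markers in stellate cells summed to 9.18 to 18.7 CPM in WT, 138 to 155 in i4F and 327 to 532 after caerulein.

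Of 16 signals that act on collagen genes, 14 were tested and 1 was called, Smad7, an inhibitor of TGF-beta signalling, which rose in i4F (1.01 ± 0.22, adjusted p = 0.029). That is 7.14% higher and 0% lower for i4F, and the median log2 fold changes were -0.02 and -0.05. The counts without i4F replicate 3 were 3 higher and 5 lower in i4F, and 1 higher and 3 lower after caerulein, and for all 4 lists these counts stand beside 47.8% and 39.7% of all genes called in either direction. Of the 4 lists, 2 genes were called in endothelial cells, both for caerulein against WT, and 0 in ductal cells with all 7 mice, beside the shares of all genes given above for these cells.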

How the data were processed

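Single cells of the pancreas of 7 mice were read by droplet RNA-seq of transcript 3′ ends. The deposited values are UMI counts per gene and cell, which the authors made with Cell Ranger on GRCm38 (mm10) and joined per condition, with a cluster name for each cell. The study's methods also give Seurat, a filter on genes and mitochondrial reads per cell, and SoupX ambient correction, and whether the deposited counts precede SoupX is not given in the sources used here. Counts were used as deposited, 0 columns were left unmapped, and no doublet caller was run here.

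Counts were summed per mouse over stellate, endothelial or ductal clusters, chosen by the words in the deposited cluster names. Sums were tested with edgeR 4.0.16 (R 4.3.3; TMM factors 0.9216 to 1.144, filterByExpr, glmQLFit and glmQLFTest, two-sided) in 1 fit of 7 mice, with Benjamini-Hochberg adjustment over all genes and a threshold of 0.05. CPM divide by the UMIs of the class. DESeq2 1.42.0 was an alternative, as were other filters, scalings, cells and mice. Where a fit leaves 1 mouse in a group, that mouse is taken to vary like the other groups. Counting intervals are exact.

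Members and lists were chosen with earlier results of these data known. Values per mouse are given in full for members with a mean of at least 100 CPM in a class or an adjusted p under 0.05, and the up to 4 called genes with the largest change per list and comparison are named, with their values in the other comparison with WT where they were also called there. On simulated counts for i4F against WT in stellate cells (14084 genes), 16% of genes changed 2-fold and 86% of genes changed 4-fold were recovered. In endothelial cells (7801 genes) these were 22% and 94%, and in ductal cells (11211 genes) 12% and 89%. Promoter sequences are from RefSeq.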

Additional observations from a re-analysis of the deposited data

How the results depend on the processing

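No called member reversed its direction under any alternative that gave it a value. The median log2 fold change of the tested members in stellate cells for caerulein against WT did change sign, from 0.20 to -0.12 without the filter on low counts and to -0.03 without i4F replicate 3. With the WT activated and second i4F clusters left out, the collagen share of stellate UMIs in i4F moved from 1.34% to 1.68%, by more than its SD of 0.303, and its difference from WT from 0.171 to 0.452 percentage points, which leaves 113 of 1280 stellate cells in i4F replicate 3. The other alternatives moved the collagen shares by less than the spread between mice. The counts of called members were less stable, and the parentheses give the percent of all genes called in the same fits. In the order i4F against WT, caerulein against WT and i4F against caerulein, stellate cells gave 10, 8 and 1 (all genes 20.6%, 17.1% and 0.459%). They gave 18, 15 and 6 with DESeq2 (all genes 26.7%, 24.8% and 5.31%), 22, 18 and 7 without the filter on low counts (all genes 16.3%, 14.3% and 3.99%), and 0, 21 and 0 with only the 2 groups compared in the fit (all genes 0.757%, 38.8% and 0.0244%). With the WT activated and second i4F clusters left out (chosen after seeing the data) they gave 22, 17 and 7 (all genes 47.7%, 37.8% and 8.78%), and with the WT activated cluster alone left out 11, 8 and 0 (all genes 19.6%, 15.3% and 0.158%). Without cells that hold pericyte genes they gave 6, 5 and 0 (all genes 15.2%, 12.6% and 0.312%), with smooth muscle and mesothelium clusters added 5, 6 and 0 (all genes 8.55%, 8.39% and 0%), and without TMM factors 15, 9 and 0 (all genes 21.7%, 16.7% and 0.486%). With the library name series as a term they gave 0 each (all genes 0.108%, 0.0472% and 0%). Leaving out 1 mouse at a time gave 0 to 27, 0 to 22 and 0 to 12, and the highest counts were without i4F replicate 3 (all genes 47.8%, 39.7% and 11.5%).

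Endothelial cells gave 0, 3 and 0 (all genes 0.81%, 4.11% and 0.601%). They gave 2 and 6 for i4F and caerulein against WT with DESeq2 (all genes 3.58% and 5.39%), 6, 12 and 10 without the filter (all genes 4.18%, 5.74% and 1.96%), 0 and 10 with only the 2 groups (all genes 0.193% and 8.31%), 1 and 0 without lineage-mixed cells, where the 3 called chains did not pass the filter and 9 members were tested (all genes 1.34% and 0.121%), 0 and 5 without the shallow WT cluster Endothelial_2 (all genes 1.7% and 5.3%), and 0 for caerulein against WT with the name series (all genes 1.34%). Without i4F replicate 1, 2 or 3 they gave 0, 0 and 4 for i4F against WT (all genes 0.103%, 0.104% and 14.3%). For caerulein against WT these fits gave 7, 0 and 10 (all genes 4.14%, 3.42% and 11%). Leaving out a WT or caerulein mouse leaves 1 mouse in its group, and most or all of the 3 calls then ended. The median log2 fold change of the tested members for caerulein against WT was then 2.05 and 3.27 without WT replicates 1 and 2. It was 2.21 and 3.08 without caerulein replicates 1 and 2. Ductal cells gave 0 in each comparison (all genes 0.00861%, 3.53% and 0.387%). They gave 4 and 3 with DESeq2 (all genes 3.21% and 9.81%), 11, 12 and 3 without the filter (all genes 5.44%, 10.5% and 3.5%), 0 and 12 with only the 2 groups (all genes 0.00898% and 28.5%) and 0 and 1 without lineage-mixed cells with 10 members tested (all genes 0.0188% and 7.18%). Leaving out 1 mouse gave 0 to 13, 0 to 11 and 0 to 2, highest without i4F replicate 3 (all genes 26.5%, 32.2% and 3.23%). The cause of these differences was not tested.

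Replicate numbers do not pair the mice, since the deviations of same-numbered WT and i4F mice correlated at -0.01 to -0.10. The replicate block gave 23, 17 and 8 calls in stellate (all genes 43.9%, 35.3% and 5.96%), 3, 7 and 0 in endothelial (all genes 9.92%, 7.84% and 0.331%) and 14, 10 and 1 in ductal cells (all genes 19.2%, 23.5% and 0.8%). In a fit of WT and caerulein mice only, the block gave 16, 5 and 9 in these classes (all genes 19.9%, 3.73% and 16%). Same-numbered WT and caerulein mice correlated at -0.44 to -0.29, and the crossed pairing, added after seeing the data, gave 21, 12 and 15 (all genes 52.9%, 20.4% and 41.5%). All 22 calls of single members were also made by DESeq2 and without i4F replicate 3, and 22 of 22 were lost with the name series. Without TMM factors the median of all genes moved by -0.16 (log2) in stellate cells for both comparisons with WT. The endothelial calls rest on few UMIs, with 2 and 6 of Col5a1 and 8 and 16 of Col5a2 in the WT mice. Caerulein replicate 2 had 4 of Col5a1, 9 of Col5a2 and 10 of Col6a1, against 49, 77 and 79 in caerulein replicate 1.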
